A study of Rattus norvegicus with 9 samples.

Results

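The mineralization genes of bone were followed through rat knee cartilage in osteoarthritis. They were 10 genes chosen by name: the transcription factors Runx2 and Sp7, the phosphatase Alpl, the matrix proteins Bglap, Ibsp and Spp1, and the osteocyte genes Dmp1, Phex, Mepe and Sost. Each name stood on 1 entry of the 32043 genes in the expression table, and all 10 were among the 13898 genes tested, whose FPKM averaged 0.5 or more over the libraries. FPKM is the number of fragments scaled by gene length and library size, so levels of different genes can be set side by side.

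All 9 libraries came from knee cartilage of male Sprague-Dawley rats, bought at 8 weeks of age, and tissue was taken 8 weeks after surgery. In the 3 control libraries the joint capsule had been opened and sutured. In the 3 model libraries knee osteoarthritis (KOA) had been induced by the modified Hulth method, which destabilizes the joint by taking out 2 ligaments (the anterior cruciate and the medial collateral) together with the medial meniscus, followed by daily forced activity. The 3 SYD libraries came from operated rats that then received Shengyu decoction (SYD), an extract of Chinese botanical drugs, by gavage for 4 weeks. Their titles name SYD, while their library names read CXTB, which the labels do not explain. The study also had a group of operated rats given CXB, its positive control, a name close to CXTB. Its methods name only control and model cartilage as sequenced, while its results add SYD-H. The treatment of these libraries is therefore taken from their titles. The study names the sequenced group as SYD-H, the highest of its 3 doses, and the labels of these libraries carry no dose. The control and model joints thus differ by ligament and meniscus surgery and by forced activity, and the SYD joints had the same surgery as the model joints. The labels number the replicates but do not say whether each library is 1 rat, so p-values measure the spread between these libraries, which may be technical.

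Mineralization of bone starts with Runx2, which commits mesenchymal cells to the osteoblast lineage, and Sp7 (osterix), which acts downstream of it. Osteoblasts then make tissue-nonspecific alkaline phosphatase (Alpl), which breaks down the mineralization inhibitor pyrophosphate, and load the matrix with osteocalcin (Bglap), bone sialoprotein (Ibsp) and osteopontin (Spp1). Cells buried in the mineral become osteocytes, which express Dmp1, Phex and Mepe, regulators of phosphate and mineral, and Sost, which encodes the Wnt inhibitor sclerostin. In a joint these genes mark the subchondral bone and calcified cartilage under the articular surface. Several are shared with other cells, since hypertrophic chondrocytes also use Runx2, Alpl and Ibsp, and osteoclasts and macrophages also make Spp1.

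Spp1, Mepe, Ibsp and Dmp1 lie next to each other in that order on chromosome 14, within 230 kb and all on the minus strand. In the authors' table they span positions 5308885 to 5539323. The submitters' processing notes name only the human build hg38, and the rat build of these positions is not given in the sources used here. Promoter windows of 300 bases, from 250 before to 50 after the start site, were found in RefSeq (build GRCr8) for 8 of the 10 genes, all but Sp7 and Phex, with a second window for Runx2. They were searched on both strands for ACCACA, a form of the core letters bound by RUNX factors, since Runx2 is itself 1 of the genes. It was in windows of 3 genes, Runx2, Bglap and Mepe, and is shown in capitals in the windows that follow, where Mepe holds it on the other strand as TGTGGT. The first Runx2 window held 3 copies, 1 starting 76 bases upstream of the start site and 2 downstream of it, at positions 28 and 36. Bglap held it 118 bases upstream and Mepe 112 bases upstream. Spp1, the gene with the largest difference between SYD and control libraries among the 10, is printed beside them and does not hold ACCACA. Other forms of the RUNX letters were not searched, so this does not show that its window lacks them.

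Runx2, chr9:23664808-23665107, plus strand: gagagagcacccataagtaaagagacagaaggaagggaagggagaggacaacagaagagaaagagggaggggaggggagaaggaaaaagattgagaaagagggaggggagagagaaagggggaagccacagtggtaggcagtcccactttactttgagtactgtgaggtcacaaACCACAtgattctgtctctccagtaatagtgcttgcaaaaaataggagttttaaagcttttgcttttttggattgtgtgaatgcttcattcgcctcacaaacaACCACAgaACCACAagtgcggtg

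Bglap, chr2:176137269-176137568, minus strand: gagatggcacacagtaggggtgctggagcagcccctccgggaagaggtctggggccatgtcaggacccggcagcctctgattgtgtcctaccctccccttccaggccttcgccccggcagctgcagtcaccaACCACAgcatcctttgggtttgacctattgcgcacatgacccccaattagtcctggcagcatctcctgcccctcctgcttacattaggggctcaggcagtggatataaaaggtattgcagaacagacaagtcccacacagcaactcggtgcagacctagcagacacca

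Mepe, chr14:5736809-5737108, minus strand: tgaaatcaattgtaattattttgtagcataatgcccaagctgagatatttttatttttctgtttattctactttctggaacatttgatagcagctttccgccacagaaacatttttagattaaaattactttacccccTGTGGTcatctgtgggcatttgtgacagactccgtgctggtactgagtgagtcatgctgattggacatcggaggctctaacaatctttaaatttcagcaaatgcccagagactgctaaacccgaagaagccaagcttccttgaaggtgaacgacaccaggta

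Spp1, chr14:5619755-5620054, minus strand: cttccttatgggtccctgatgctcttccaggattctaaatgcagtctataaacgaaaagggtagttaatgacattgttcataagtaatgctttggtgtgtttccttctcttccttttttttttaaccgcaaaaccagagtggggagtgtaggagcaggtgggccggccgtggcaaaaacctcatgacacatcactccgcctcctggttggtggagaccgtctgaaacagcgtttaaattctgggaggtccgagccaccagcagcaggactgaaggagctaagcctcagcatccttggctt

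Of all 33469 RefSeq promoter windows of this length, 17.3% held ACCACA on either strand and 2.02% held it more than once. The TATA letters TATAAA stood in 3 of these genes, Bglap, Ibsp and Spp1, against 14.2% of all windows. These matches describe letters in the windows and are not binding sites that were measured.

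The libraries held 14914121 to 19510537 reads. Mitochondrial genes took 4.05% to 4.86% of the reads in control libraries, 90.7%, 39.5% and 81.3% in model libraries 1 to 3, and 23.7%, 34.7% and 72.7% in SYD libraries 1 to 3. Outside the mitochondrial genes, model libraries 1 and 3 kept 1744769 and 3611325 reads and SYD library 3 kept 5153851, whereas the other 6 kept 11106680 to 17373645. The authors' FPKM are scaled to an effective library size that follows the remaining reads more than the total. Model libraries 1 and 3 also stood apart from model library 2 in erythroid markers, whose summed FPKM was 38136 and 42429 against 296. Reads on the 10 genes ran from 28 for Phex in model library 1 to 99525 for Spp1 in model library 2.

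The tissue label was checked against its markers. Col2a1, the main collagen of cartilage, was at 8323, 348 and 4468 FPKM in the control libraries, at 606, 39.0 and 56.1 in the model libraries and at 609, 430 and 42.4 in the SYD libraries. Bglap, a gene of bone, exceeded Col2a1 in 7 of the 9 libraries, all but control libraries 1 and 3. Bone transcripts were thus read in every group, and the share of bone in the dissected tissue was not measured. In bulk samples, fewer cells of a type and less RNA per cell cannot be told apart.

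All 10 genes had a control mean above the median of the tested genes (3.78 FPKM), from 5.11 FPKM for Runx2 to 940 for Bglap. Ranked by mean FPKM, Bglap was first in every group, followed by Spp1, Ibsp, Alpl, Dmp1 and Mepe in that order. Bglap and Spp1 together made up 66.2% to 94.2% of the summed FPKM of the 10 genes in each library. In the control group the libraries of Bglap and Spp1 did not overlap (mean 940 ± 124 against 400 ± 140 FPKM, SD, n = 3), and neither did those of Ibsp and Alpl. All other neighbours in the control order overlapped. In the model and SYD groups Bglap and Spp1 overlapped, and the gaps lay between Spp1 and Ibsp and between Runx2 and Phex. Sost changed place most, standing 7th of the 10 in control libraries, 8th in model libraries and 10th in SYD libraries.

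**Figure D1:**
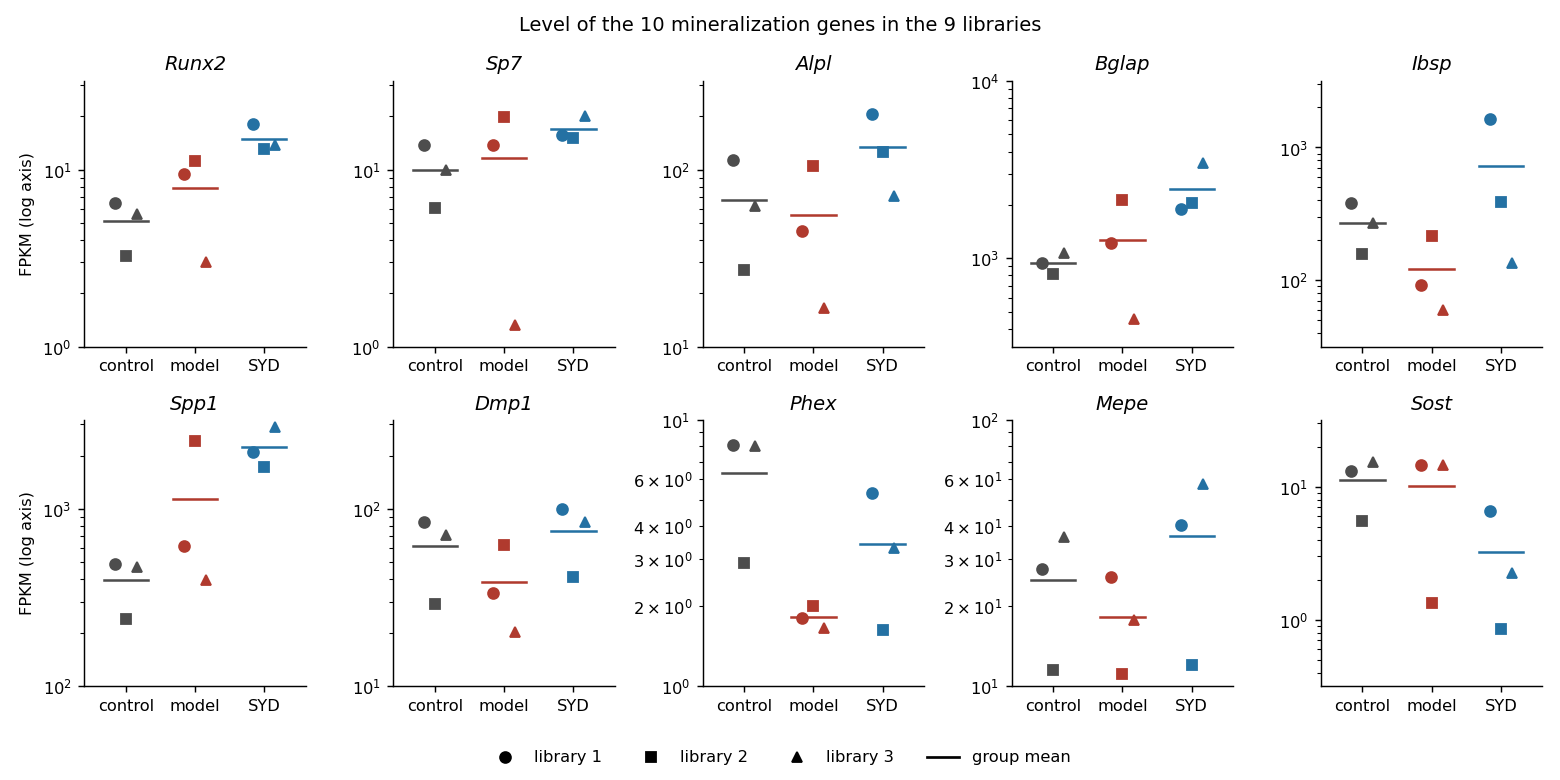
FPKM of each of the 10 genes (log axis, a separate range per panel) in the 3 control, 3 model and 3 SYD libraries, with the group mean as a line. SYD libraries lie above all control libraries for Runx2, Sp7, Bglap and Spp1, and the 3 model libraries lie below all control libraries for Phex.

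Runx2 was at 6.48, 3.25 and 5.60 FPKM in control libraries 1 to 3, at 9.48, 11.2 and 3.01 in model libraries and at 18.0, 13.1 and 13.8 in SYD libraries. The 3 SYD libraries were above all other 6, and model library 3 was the lowest of all. Sp7 was at 13.8, 6.07 and 9.91 FPKM in control libraries, at 13.7, 19.9 and 1.32 in model libraries and at 15.7, 15.2 and 20.1 in SYD libraries. SYD and control libraries did not overlap for Sp7, while the model libraries spread over both, with model library 3 resting on 29 reads. The ratio of Sp7 to Runx2 within a library was 1.77 to 2.12 in control libraries and 0.874 to 1.46 in SYD libraries. In model libraries 1 to 3 it was 1.44, 1.775 and 0.439. The ratio is given as description, since libraries were separate for 47.9% of all gene pairs in SYD against control.

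Alpl, the phosphatase, was at 114, 27.2 and 62.0 FPKM in control libraries, at 45.3, 105 and 16.5 in model libraries and at 205, 126 and 71.2 in SYD libraries. Its groups overlapped in every comparison, and the highest library of a group was 2.88 to 6.32 times the lowest.

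Bglap was at 935, 818 and 1067 FPKM in control libraries, at 1226, 2121 and 454 in model libraries and at 1907, 2039 and 3445 in SYD libraries. It was the most even gene of the control group, the highest control library being 1.30 times the lowest, and all SYD libraries lay above all control libraries. Ibsp was at 384, 157 and 269 FPKM in control libraries, at 92.2, 215 and 60.002 in model libraries and at 1650, 391.97 and 135 in SYD libraries. Its SYD libraries spread 12.2-fold, from below every control library to above them all. Spp1 was at 489, 238 and 471 FPKM in control libraries, at 618, 2406 and 399 in model libraries and at 2098, 1735 and 2896 in SYD libraries. SYD and control libraries did not overlap for Spp1, and model library 2 was at the level of the SYD libraries. Ranked by FPKM among non-mitochondrial genes, which needs no scaling between libraries, Spp1 stood at places 20, 83 and 21 in control libraries, 26, 3 and 85 in model libraries and 4, 5 and 4 in SYD libraries. Bglap stood at places 8 to 12 in control libraries, at 9, 6 and 76 in model libraries and at 3 to 5 in SYD libraries.

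Dmp1, an acidic phosphoprotein of osteocytes, was at 84.8, 28.9 and 71.3 FPKM in control libraries, at 33.6, 62.9 and 20.1 in model libraries and at 100, 41.5 and 84.5 in SYD libraries. Its groups overlapped in every comparison. Mepe, an osteocyte matrix phosphoglycoprotein, was at 27.5, 11.5 and 36.5 FPKM in control libraries, at 25.8, 11.1 and 17.7 in model libraries and at 40.5, 12.04 and 57.7 in SYD libraries, again with overlap throughout. Control library 2 was the lowest of the 3 control libraries for each of the 10 genes and for the chondrocyte markers, while its erythroid sum of 16153 FPKM was the highest of the 3.

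Phex, a membrane endopeptidase whose loss causes renal phosphate wasting, was at 8.09, 2.91 and 7.998 FPKM in control libraries, at 1.81, 2.01 and 1.66 in model libraries and at 5.34, 1.62 and 3.30 in SYD libraries. All model libraries lay below all control libraries, and the SYD libraries overlapped both groups. The model values rest on 28, 226 and 47 reads. Sost was at 13.1, 5.57 and 15.3 FPKM in control libraries, at 14.5, 1.34 and 14.5 in model libraries and at 6.61, 0.844 and 2.24 in SYD libraries. The model group split, with libraries 1 and 3 at the upper control level and library 2 among the low SYD libraries, and SYD library 1 overlapped the control group. The SYD values of Sost rest on 293, 40 and 43 reads.

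Model against control asks what the surgery and forced activity changed. Among the 10 genes Phex alone met the criteria of the study for a differentially expressed gene (DEG), a log2 fold change beyond 1 in either direction with p under 0.05 before adjustment. Phex fell from 6.33 ± 2.97 to 1.82 ± 0.174 FPKM (SD, n = 3 each), to 0.288 of the control mean. Ibsp was at 0.453 of the control mean and Spp1 at 2.86 times it, both with overlapping libraries. The Spp1 value rests on model library 2, without which the ratio was 1.27 and the log2 fold change 0.39 in place of 1.14. None of the 10 was raised with all libraries kept.

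In limma on log2(FPKM + 1), the change of Phex was -1.28 (SE 0.44), with an adjusted p of 0.192 over all genes tested. It was negative under all 11 alternative settings (-3.73 to -1.10), and relative to the median of all tested genes, which shifted by -0.23, it was -1.05. The exact permutation test gave p = 0.1, the smallest that 3 libraries against 3 allow. The change of Ibsp was -1.25 on the log2 scale (SE 0.57) and that of Spp1 was 1.14 (SE 0.76), with limma giving them an adjusted p of 0.306 and 0.470. With FPKM rescaled to TPM, which counts the mitochondrial reads in the total, the median of all genes shifted by -2.60 and the change of Spp1 turned to -2.06.

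Against this stood the counts over all genes tested, of which 3.55% were raised DEGs and 11.2% lowered DEGs, and 2.59% had an adjusted p under 0.05. The 1 lowered gene of 10 is near that background. All model libraries lay above all control libraries for 8.65% of genes and below them for 20%, against 0 and 1 of the 10. Leaving out control library 1, control library 3 or model library 3 ended the call of Phex, with log2 fold changes of -1.07 to -1.68 over the 6 such fits, and so did voom on the reads and the replicate block. It was also lost without the 3 libraries with the most mitochondrial reads (-1.19), where the 1 model library left is assumed to vary like the controls. That fit called Spp1 (2.66) and Bglap (1.18) as raised and Sost (-2.29) as lowered, with 10.5% of all genes raised and 13.2% lowered. Without model library 2, Ibsp joined Phex among the DEGs with a log2 fold change of -1.75 and an adjusted p of 0.0645 in limma, in a fit where 18.4% of all genes were lowered DEGs. Beside these changes, 8 of 12 chondrocyte markers were lowered DEGs, and their summed FPKM went from 438 to 10876 in control libraries to 180 to 774 in model libraries. Of 7 tested neutrophil markers 4 were lowered (Camp, Mpo, Elane and Prtn3), and of 9 osteoclast markers 2 were lowered (Mmp9 and Itgb3). Of 6 endothelial markers Emcn was raised, and of 6 hypertrophic chondrocyte markers Vegfa was raised and Ihh lowered. In TPM the changes of Emcn and Vegfa were -1.15 and -1.37. The part of these cells in the level of Phex was not tested.

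**Figure D2:**
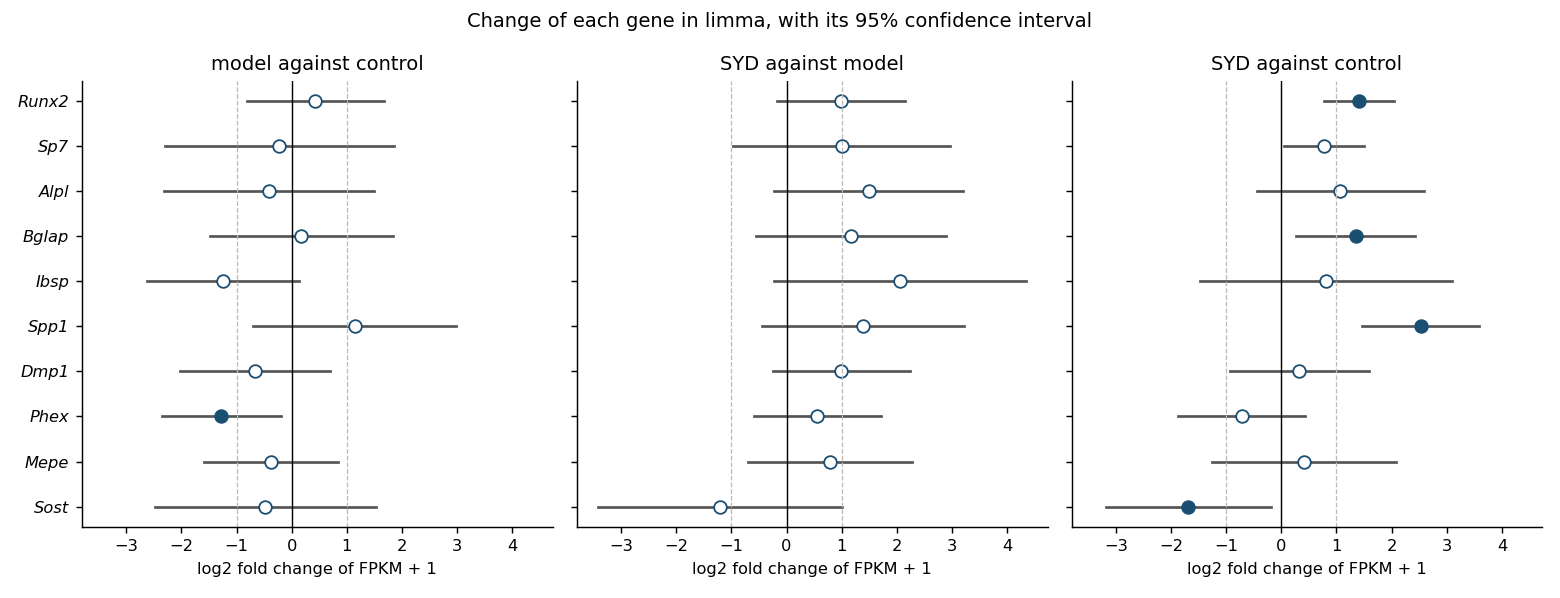
Log2 fold change of FPKM + 1 for each of the 10 genes in the 3 comparisons, with the 95% confidence interval from limma as a bar. Filled points are DEGs (Phex in model against control, and Runx2, Bglap, Spp1 and Sost in SYD against control, of which Bglap turns in sign in TPM and under quantile normalization), and dashed lines mark a change of 1 on the log2 scale.

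SYD against model asks what the treatment changed in operated joints. Mean FPKM was higher in the SYD group for 9 of the 10 genes, all but Sost, which turned in TPM and voom, but none of the 10 met the DEG criteria. Without the 3 libraries with the most mitochondrial reads, which leaves 1 model library, the log2 fold changes of Sp7, Bglap and Spp1 were -0.34, -0.11 and -0.33 and that of Sost was 0.68. The SYD mean was 1.90 times the model mean for Runx2, 2.42 times for Alpl, 5.93 times for Ibsp and 1.94 times for Bglap, and that of Sost was 0.319 of it. The Ibsp value rests on SYD library 1, without which the ratio was 2.16 and the log2 fold change 1.11 in place of 2.06. Runx2 was the only 1 of the 10 whose libraries did not overlap, with 13.1 FPKM as the lowest SYD library and 11.2 as the highest model library.

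The 10 genes had a median log2 fold change of 1.00, while the median of all genes was 0.22 and 61.9% of all genes were positive. The change was 0.98 for Runx2 (SE 0.48), 1.49 for Alpl (SE 0.71), 2.06 for Ibsp (SE 0.95) and -1.21 for Sost (SE 0.92), the last turning to 0.25 in TPM and 0.12 in voom. The lowest adjusted p in limma among the 10 was 0.723, and none of the 10 had a p under 0.05 before adjustment. The exact permutation test gave p = 0.1 for Runx2 and 0.2 or more for the others.

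Of all genes, 3.62% were raised DEGs and 0.532% lowered DEGs, and 0% had an adjusted p under 0.05, although 731 genes had a limma p under 0.05 before adjustment. Complete separation of the libraries was found for 7.89% of genes towards SYD and 3.17% towards model, against 1 and 0 of the 10. The count depended on the settings, and was highest, among those run, without model library 2. Without it, Runx2, Alpl, Bglap, Spp1, Dmp1 and Sost were DEGs, 6 of the 10, with log2 fold changes of 1.29, 2.12, 1.67, 2.14, 1.41 and -2.12 and adjusted p of 0.106 to 0.233 in limma. In that fit 18% of all genes were DEGs (13.8% raised and 4.12% lowered), against 4.15% with all libraries. The model libraries left in it are the 2 with the most mitochondrial and erythroid reads, and the part of these in the changes was not tested. Without model library 3 the changes of 9 genes, all but Mepe, were smaller in size instead, at 0.49 for Runx2, 0.03 for Sp7, 0.82 for Alpl, 0.56 for Bglap, 1.65 for Ibsp, 0.85 for Spp1, 0.61 for Dmp1, 0.51 for Phex and -0.75 for Sost. With all libraries kept, 4 of the 10 were DEGs in voom, 3 in TPM, 2 under quantile normalization and 2 with the replicate block, against 7.76%, 3.81%, 3.89% and 3.78% of all genes. Of 9 osteoclast markers, 4 were raised DEGs in this comparison (Acp5, Mmp9, Dcstamp and Oscar), with a median log2 fold change of 1.48 over the 9. Of 10 macrophage markers 2 were raised (Csf1r and Cd14), with a median of 0.68, and of the hypertrophic chondrocyte and neutrophil lists 1 each was raised (Panx3 and Elane). The median was 1.45 for the 12 chondrocyte markers, 1.08 for skeletal muscle, 0.94 for endothelial, 0.17 for adipocyte and -1.26 for erythroid markers, without a DEG among them. The part of all these cells was not tested either.

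SYD against control compares operated and treated joints with control joints, and shares its libraries with both comparisons above. Runx2, Bglap and Spp1 rose and Sost fell by the DEG criteria, and of these Bglap turned in sign in TPM and under quantile normalization. Spp1 rose from 400 ± 140 to 2243 ± 594 FPKM (SD, n = 3 each), 5.61 times the control mean. Runx2 rose from 5.11 ± 1.67 to 15.0 ± 2.65 FPKM, 2.93 times the control mean, and Bglap from 940 ± 124 to 2463 ± 853, 2.62 times. Sost fell from 11.3 ± 5.10 to 3.23 ± 3.01 FPKM, to 0.285 of the control mean.

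On the log2 scale Spp1 changed by 2.53 (SE 0.43) and Runx2 by 1.41 (SE 0.26), where limma put the adjusted p at 0.0186 and 0.0212. Both were positive under all 11 alternatives, from 0.98 to 2.56 for Spp1 and from 0.06 to 1.60 for Runx2, with the lowest value of each in TPM, where neither was a DEG and the median of all genes shifted by -1.31. Relative to that median, the TPM changes were 2.29 and 1.37. Both remained DEGs whichever of the 6 libraries was left out, with adjusted p of up to 0.0850 in limma. Among these fits is the one without SYD library 3, the SYD library with the most mitochondrial reads, where they were 2.32 and 1.46 with adjusted p of 0.0225 and 0.0315 in limma.

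Bglap changed by 1.34 on the log2 scale (SE 0.44), with 0.0881 as its adjusted p in limma. The change turned to -0.24 under quantile normalization, which ranks the mitochondrial genes too. In TPM it turned to -0.20, which was 1.11 relative to the median of all genes. Its rank among non-mitochondrial genes only was higher in every SYD library than in any control library. Bglap was a DEG in 5 of the 11 alternatives, and besides these scalings its call was lost with a pseudocount of 0.1 or 0.01, without the filter and with the replicate block. Its call was also lost without control library 1, 2 or 3 or SYD library 2, the change then being 1.08 to 1.503 over the 6 such fits. Sost changed by -1.68 (SE 0.61), with 0.112 as its adjusted p in limma, and was negative under all 11 alternatives (-3.29 to -1.68). Its call was lost with all 9 libraries in 1 fit and without control library 1 or 3 or SYD library 2 or 3, with changes of -2.23 to -1.21 over the 6 fits. Sp7 had separate libraries and a log2 fold change of 0.78 (SE 0.29), below the fold criterion, which turned to -0.68 in TPM. Without control library 1, Sp7 (1.03) and Alpl (1.55) were raised DEGs, as were 7.85% of all genes. Phex was at 0.540 of the control mean with overlapping libraries, a change of -0.72 (SE 0.47) with 0.326 as its adjusted p in limma. Without control library 2 it was a lowered DEG, as were 7.63% of all genes. Alpl, Ibsp, Dmp1 and Mepe overlapped, with adjusted p of 0.270 or more in limma.

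Over all genes, 7.25% were raised DEGs and 9.22% lowered DEGs, against 3 and 1 of the 10, and 17.3% had an adjusted p under 0.05, against 2 of the 10. SYD libraries lay wholly above control libraries for 20.3% of genes and wholly below for 22.2%, against 4 (Runx2, Sp7, Bglap and Spp1) and 0 of the 10. The exact permutation test gave p = 0.1 for these 4, the smallest it allows. Over the 3 groups together, 2.32% of all genes and none of the 10 had an adjusted p under 0.05 in the F test of limma, the lowest among the 10 being 0.131 for Spp1 and 0.193 for Runx2. Before adjustment, 2 of the 10 and 20.5% of all genes had a p under 0.05 in this test.

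Markers of osteoclasts, the bone-resorbing cells, moved beside these genes. In SYD against control, 6 of 9 were raised DEGs and 1 was lowered, Acp5 and Atp6v0d2 among the raised turning to -0.26 and -0.15 in TPM, and their summed FPKM was 653 to 1099 in control libraries, 458 to 1802 in model libraries and 2027 to 2712 in SYD libraries. Ctsk, the collagen-degrading cathepsin of osteoclasts, was at 346, 251 and 430 FPKM in control libraries and at 1507, 1067 and 1186 in SYD libraries. Of 6 endothelial markers, 4 were raised DEGs (Cdh5 was at -0.02 in TPM), with sums of 29.4 to 39.0 in control and 79.8 to 111 in SYD libraries. Of 10 macrophage markers, which can come with Spp1, 1 was raised (Cd14), with sums of 177 to 242 in control and 182 to 399 in SYD libraries. Of 6 markers of hypertrophic chondrocytes, Mmp13 and Vegfa were raised and Col10a1 was lowered in SYD against control, and Col10a1, the collagen that defines these cells, was at 674, 22.2 and 327 FPKM in control libraries, 48.0, 5.65 and 29.6 in model libraries and 30.9, 11.96 and 5.38 in SYD libraries. Of 12 chondrocyte markers 1 was lowered (Matn1), with a median log2 fold change of -1.90 and sums of 438 to 10876 FPKM in control and 115 to 1213 in SYD libraries. Among the other lists, 5 of 7 tested neutrophil markers and 3 of 6 erythroid markers were lowered DEGs in SYD against control, 2 of 5 tested adipocyte markers (Fabp4 and Lpl) were raised, and 0 of 7 skeletal muscle markers were called. The sum of the 10 mineralization genes was 1298 to 2075 in control, 988 to 4955 in model and 4376 to 6730 in SYD libraries. The part of osteoclasts, chondrocytes, macrophages, endothelial cells and the other cell types in the levels of Spp1, Runx2 and Bglap was not tested.

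**Figure D3:**
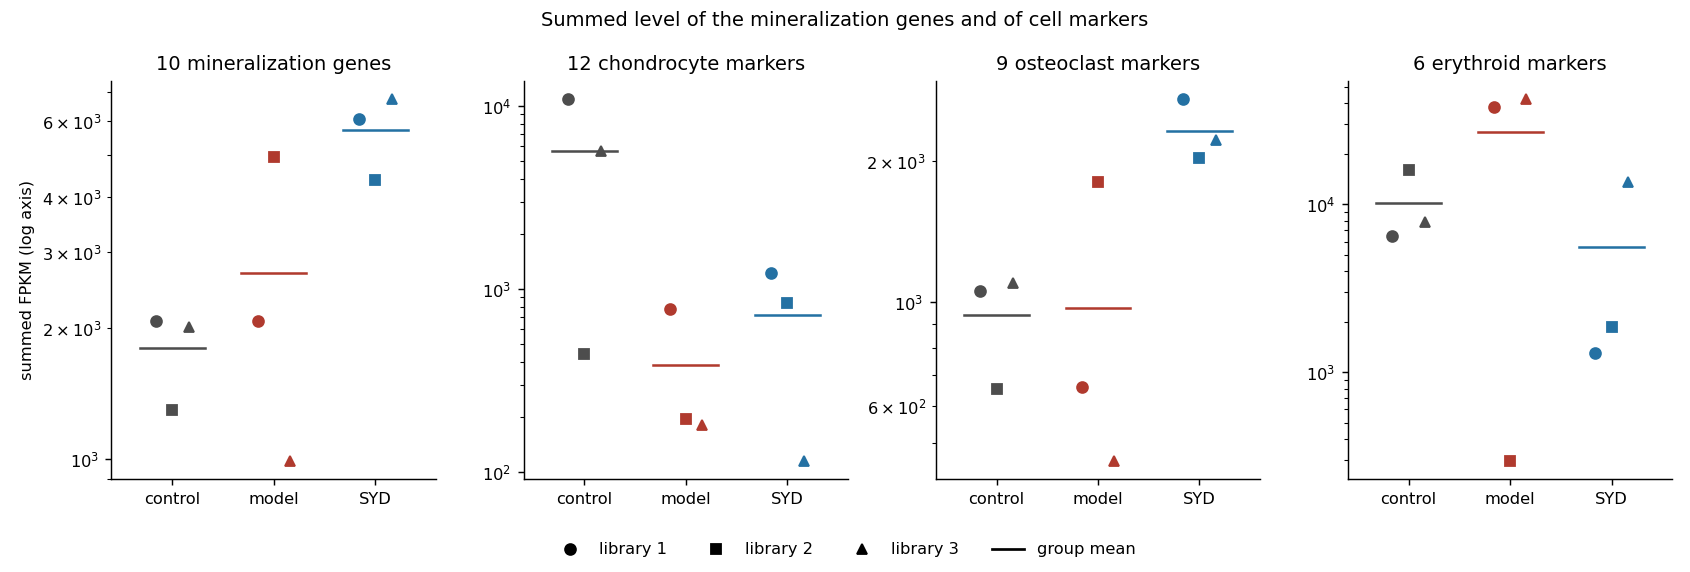
Summed FPKM (log axis) of the 10 mineralization genes and of chondrocyte, osteoclast and erythroid markers in each library, with the group mean as a line. The 3 SYD libraries are above all control libraries for the osteoclast markers (2027 to 2712 against 653 to 1099), and model library 2 is far below model libraries 1 and 3 for the erythroid markers (296 against 38136 and 42429).

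Ratios of 2 of the genes within a library do not depend on how libraries are scaled. Of the 45 pairs, 12 had separate libraries in model against control, 0 in SYD against model and 24 in SYD against control. Over all pairs of the 7486 genes with reads in every library, these shares were 31.3%, 11% and 47.9%. Among the 45 pairs they were 26.7%, 0% and 53.3%, so the shares in model against control and SYD against control are near those of all pairs and are no result about the 10 genes. The 3 ratios shown were chosen after their values were seen and are given as description. Spp1 to Dmp1 was 5.77, 8.23 and 6.61 in control libraries, 18.4, 38.3 and 19.9 in model libraries and 21.0, 41.8 and 34.3 in SYD libraries. Every operated library was thus above every control library, treated or not. Phex to Dmp1 was 0.0954 to 0.112 in control libraries, 0.0319 to 0.0825 in model libraries and 0.0391 to 0.0533 in SYD libraries, again with all operated libraries on one side. Sost to Mepe, both osteocyte genes, was 0.419 to 0.485 in control libraries and 0.0388 to 0.163 in SYD libraries, while model libraries were at 0.561, 0.121 and 0.818.

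**Figure D4:**
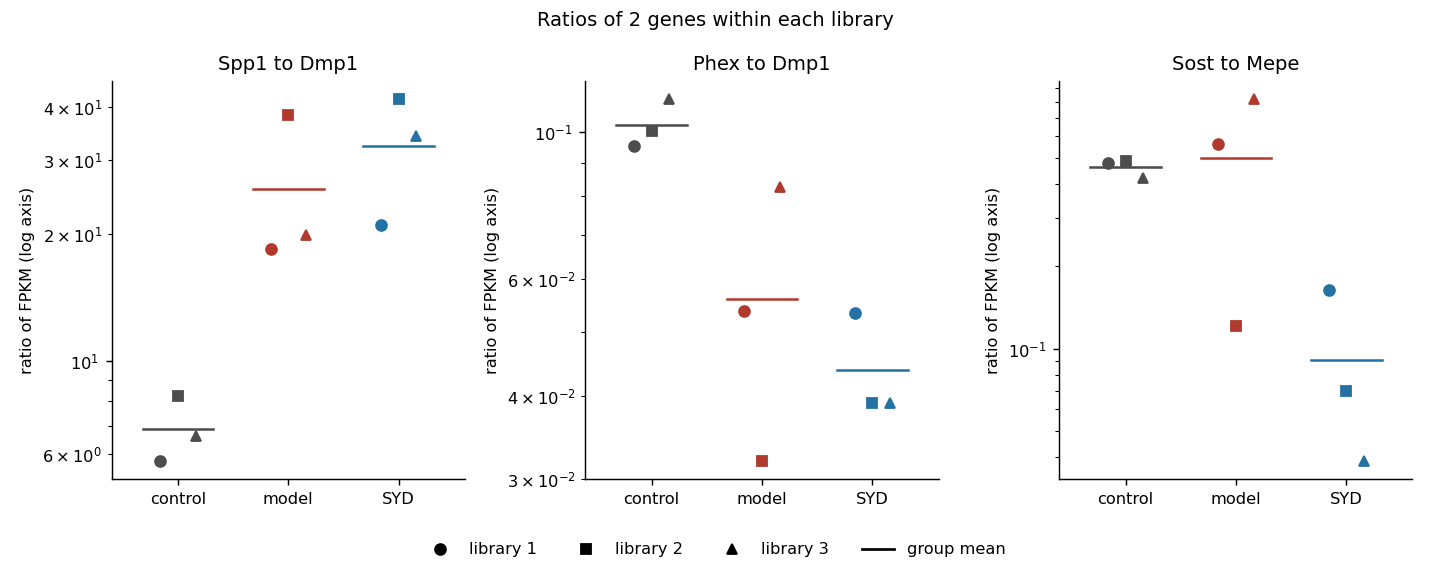
Ratio of FPKM of Spp1 to Dmp1, Phex to Dmp1 and Sost to Mepe within each library (log axis), with the group mean as a line. Spp1 to Dmp1 is 5.77 to 8.23 in control libraries and 18.4 or more in every model and SYD library, and Sost to Mepe is lowest in SYD libraries and model library 2.

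The wider pathway was read from 3 lists around the 10 genes. Among 18 osteoblast regulators, 17 were tested, and 2 were raised and 2 lowered in model against control, where 3.55% and 11.2% of all genes were. The lowered share is near that background, and the genes are described singly, as the list itself was not tested. Twist1, a brake on Runx2 activity, rose from 4.91 ± 2.16 to 15.0 ± 1.69 FPKM (SD, n = 3 each) in the model group, a change that was -1.32 in TPM. It stood at 15.7 ± 8.16 FPKM in the SYD group, again a raised DEG against control. Tcf7, a transcription factor of Wnt signaling, rose to 4.67 ± 1.35 from 1.79 ± 0.525 FPKM in the model group and was at -1.30 in TPM. Lef1, its relative, fell from 4.94 ± 0.199 FPKM to 1.13 ± 1.04 in the model group and 1.37 ± 0.469 in the SYD group, with an adjusted p of 0.0139 in limma for SYD against control. Wnt10b, a Wnt ligand that favours osteoblasts, was at 1.01, 1.08 and 1.44 FPKM in control libraries, was listed at 0 in all model libraries and was at 2.68, 2.98 and 3.81 in SYD libraries. A count of 3 reads would be 0.369, 0.0508 and 0.202 FPKM in the model libraries. Wnt10b was the 1 gene of this list that was a DEG in SYD against model, with an adjusted p of 0.723 in limma, and it was called lowered in model against control with an adjusted p of 0.0406. Atf4 and Cbfb, the most abundant of the list with Twist1, were not DEGs, and Cbfb, the partner of Runx2 on DNA, was at 17.1 ± 2.08 FPKM in control, 29.2 ± 4.23 in model and 16.8 ± 1.21 in SYD libraries.

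Of 20 genes of bone matrix and mineral handling, 0 were DEGs in model against control and in SYD against model, and 5 were raised in SYD against control, where 7.25% of all genes were: Dcn, Col5a2, Tnc, Ifitm5 and Enpp1. Ifitm5, a membrane protein of mineralizing osteoblasts, rose from 9.87 ± 3.23 to 28.8 ± 15.0 FPKM, and Enpp1, which makes pyrophosphate, from 10.5 ± 4.29 to 22.8 ± 3.35. In TPM, where the median of all genes shifted by -1.31, their changes were -0.08 and -0.34. Dcn, a small proteoglycan of fibrous and bone matrix, rose from 61.2 ± 20.9 to 234 ± 53.2 FPKM, with an adjusted p of 0.0183 in limma, and Col5a2, a fibrillar collagen found beside type I, rose from 48.8 ± 20.6 to 143 ± 48.9. Tnc, an adhesion-modulating glycoprotein, rose from 29.0 ± 11.6 to 67.4 ± 22.2 FPKM and was at -0.28 in TPM. The most abundant members, Col1a1, Col1a2 and Sparc, were not DEGs. Col1a1, the main collagen of bone, was at 4426, 1962 and 3225 FPKM in control libraries, at 1211, 4944 and 691 in model libraries and at 6597, 5957 and 3991 in SYD libraries.

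Of 12 osteocyte and endocrine genes, 10 were tested, and 1 was raised in model against control, 0 in SYD against model and 2 in SYD against control, beside 3.55%, 3.62% and 7.25% of all genes raised. Tnfsf11 (RANKL), the osteoclast-inducing cytokine, was in both, at 2.17, 0.719 and 2.16 FPKM in control libraries, 14.7, 6.63 and 3.08 in model libraries and 19.3, 9.24 and 3.52 in SYD libraries. All operated libraries lay above all control libraries for Tnfsf11, although its change in model against control was -0.78 in TPM. Gja1 (connexin 43), the gap junction protein of osteocytes, rose from 28.7 ± 7.81 to 71.3 ± 33.1 FPKM in SYD against control. Its change in TPM was -0.31, where the median of all genes shifted by -1.31. The median log2 fold change of the 3 lists in SYD against control was 0.34, 0.83 and 0.54, beside 0.79 for the 10 genes and 0.00 for all genes.

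Across the 9 libraries, 35 of the 45 pairs among the 10 genes were positively correlated in log2(FPKM + 1), with a median Pearson r of 0.51. The highest was 0.91 between Runx2 and Spp1 and the lowest -0.73 between Bglap and Sost. The share over all gene pairs was not computed, and the libraries share groups and differ in depth, so these values are a description. Among the 12011 genes that averaged 1 FPKM or more, the 5 most like the mean profile of the 10 were B4galnt3 (r = 0.95), Sdc4 (r = 0.94), Nrbp2 (r = 0.92), Kat6b (r = 0.92) and AABR07054614.1 (r = 0.92). Ckb, the brain-type creatine kinase, was the gene most like Spp1 (r = 0.996), with means of 166, 278 and 397 FPKM in control, model and SYD libraries. Slco2b1 (r = 0.93) and Cbl (r = 0.92) were most like Sost, Ncmap (r = 0.93) and Cpm (r = 0.93) most like Phex, and Pheta1 (r = 0.98) and Smtn (r = 0.97) most like Runx2.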

How the data were processed

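RNA sequencing of 9 libraries was analysed, 3 per group. The authors deposited 1 table of FPKM per gene and library. The submitters' processing notes name HISAT2 2.0.5 and the human build hg38, although the table lists rat Ensembl genes, and the counting tool and annotation are not given in the sources used here. Columns were matched to samples by the library names in the labels, which call the SYD libraries CXTB. The labels give cartilage as the tissue, but their extraction text mentions retina. FPKM times gene length gave whole reads (tolerance 0.1) in 100% of values, from which depth was computed. Floors of 3 reads cover counting error only.

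limma 3.58.1 (R 4.3.3) was fitted to log2(FPKM + 1), which understates changes of low genes, with eBayes and a trend, in the 6 libraries compared (all 9 for the F test), over genes averaging 0.5 FPKM or more. It is two-sided, with Benjamini-Hochberg adjustment, and was tested on simulated data. Exact permutation tests (SciPy 1.17.1) were two-sided. Named genes were the 10 genes, for each list the 3 most abundant and any DEG of the pathway lists, and the genes most correlated with the 10 genes. Values are printed for those a result turns on, and further cell markers that were DEGs were named after their values were seen. Alternatives were pseudocounts of 0.1 and 0.01, filters, TPM, a common non-mitochondrial sum, quantile normalization, all libraries in 1 fit, robust eBayes, a replicate block, voom and leaving out each library. Leaving out the 3 libraries with the most mitochondrial reads was chosen after seeing the data. The 10 genes and the lists were chosen with earlier results of these data known.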

Additional observations from a re-analysis of the deposited data

How the results depend on the processing

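Of the 10 genes, 1 was a DEG in model against control, 0 in SYD against model, 4 in SYD against control and 0 over the 3 groups. In that order these counts were 8, 3, 2 and 8 in TPM and 3, 2, 3 and 0 under quantile normalization, where DEGs were 75.2%, 3.81%, 43.4% and 53.6% of all genes in TPM and 14.7%, 3.89%, 18.3% and 3.12% under quantile normalization. In SYD against model they were 1 with all 9 libraries in 1 fit (8.78% of all genes) and 4 in voom (7.76%). With the replicate block, which the numbers do not support as a pairing (correlations of -0.27 to 0.19), they were 0, 2, 3 and 0. The shares of all genes were then 12%, 3.78%, 16.3% and 0.072%. With each library left out they ranged over 0 to 2, 0 to 6, 2 to 4 and 0 to 1, beside 9.42% to 24.1%, 2.27% to 18%, 12.9% to 18.7% and 0.036% to 18.7% of all genes. Without the 3 libraries with the most mitochondrial reads they were 3, 0, 3 and 2 (23.8%, 3.96%, 18.7% and 25.8% of all genes). This leaves 1 model library, which is assumed to vary like the other groups, and in SYD against control it is the fit without SYD library 3. Changes of single genes turned as follows. In model against control, Runx2 was at -2.27, Bglap at -3.03 and Spp1 at -2.06 in TPM, Bglap at -0.051 with a common non-mitochondrial sum and -2.03 under quantile normalization, and Sp7 at 0.42 in voom. Without those 3 libraries, Sp7 was at 1.00, Alpl at 0.84 and Dmp1 at 0.16 there, and in SYD against model Sp7 was at -0.34, Bglap at -0.11, Spp1 at -0.33 and Sost at 0.68. Also in SYD against model, Sost was at 0.25 in TPM and 0.12 in voom. In SYD against control, TPM gave Sp7 -0.68, Alpl -0.46, Bglap -0.20, Ibsp -0.73, Dmp1 -1.21 and Mepe -1.10, quantile normalization gave Bglap -0.24, and Mepe was at -0.027 without those 3 libraries. With each library left out, ranges that held both signs were, in model against control, -0.84 to 0.75 for Sp7, -1.05 to 0.25 for Alpl, -0.32 to 0.79 for Bglap and -0.93 to 0.43 for Sost, and in SYD against control, -0.13 to 1.67 for Ibsp, -0.14 to 0.70 for Dmp1 and -0.046 to 1.06 for Mepe. The cause of these turns was not tested. The other settings left the counts within 1.5 times of the main ones. In model against control, voom kept the count at 1 but called Sost (-2.34) in place of Phex, with 23.6% of all genes called. The lowest counts behind a value were 28 reads for Phex, 29 for Sp7 and 40 for Sost.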
